A study of Mus musculus with 6 samples.

Results

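The homeostatic identity genes of microglia were examined as a set of 37 named mouse genes. The genes were listed by symbol, with earlier results of these data known, and the rule for finding them used no measured value other than to pick a probe. A gene entered when the transcript accession of a non-control probe mapped to its symbol, and the probe with the highest mean signal stood for it. All 37 genes were found, of 23462 genes named on the array. They were covered by 50 probes, with 1 probe for 24 genes and more than 1 for 13 genes.

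The microglia came from mice of 2 genotypes, PGC-1αf/f and mPGC-1α, with 3 arrays of each, and all were labelled male and 10 weeks old. Both groups carried a loxP-flanked PGC-1α allele with an eGFP reporter on a C57BL/6 background. The mPGC-1α mice additionally carried a tamoxifen-inducible Cre recombinase (CreERT2) in the Cx3cr1 locus, which turns on PGC-1α overexpression. The gene behind PGC-1α is Ppargc1a, and the protein is a coactivator best known for driving mitochondrial biogenesis. Cx3cr1 is also active in some macrophages and blood monocytes, so this driver is not restricted to microglia. The methods describe an interval between tamoxifen and the experiments, meant to limit the overexpression to microglia. The methods describe the tamoxifen course for the mouse lines in general and do not state it for the mice of these arrays, and the labels name no surgery for either group. The labels number the arrays of a group as replicates and do not tie each one to a separate animal, so p-values measure the spread between these samples, which may be technical.

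Cells were enriched by magnetic selection through P2RY12, itself a homeostatic microglial receptor, so the selection was meant to leave out cells without this protein. Transcripts of other cells were nonetheless measured, as given with the marker lists further on. The microglial label was checked against 8 defining markers outside the set. All 8 were well above background on all 6 arrays, among them P2ry12, P2ry13, Cx3cr1, Sall1, C1qa, C1qb and C1qc.

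Microglia are the resident macrophages of the brain parenchyma. In the healthy adult brain they hold a characteristic expression program that depends on signalling through the CSF1 receptor and TGF-β and on transcription factors such as PU.1, SALL1 and IRF8. Its products include receptors that sense lipids, nucleotides and damaged cells, lysosomal proteases, and secreted proteins. Many of these transcripts are known to decline when microglia become activated or are cultured, which is why they serve as a readout of the homeostatic state.

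The binding motif of PU.1 and other ETS factors was looked for in the promoters of the set, because PU.1 is the pioneer factor of the macrophage lineage. RefSeq promoter windows (GRCm38.p6), which run from 250 bases before to 50 bases after an annotated start, were found for 27 of the 37 genes. The 7 letters AGGAAGT occurred on either strand in 8 of these 27 genes (29.6%). Among all 27025 genes with such a window the share was 10.7%. The 8 genes were Cmtm6, Ctss, Fcrls, Hpgds, Inpp5d, Ltc4s, Rnase4 and Slco2b1. A match describes these letters and not a bound site, and no test was made of the difference in share. The stretches with a match before the annotated start are printed below 5′ to 3′ on the strand of the gene, with the motif in capitals, to show how differently its neighbourhood reads from gene to gene.

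Inpp5d, chr1:87620263-87620311, plus strand: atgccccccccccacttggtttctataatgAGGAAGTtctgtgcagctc
Ltc4s, chr11:50238613-50238679, minus strand: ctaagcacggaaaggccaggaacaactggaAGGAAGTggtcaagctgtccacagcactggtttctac
Hpgds, chr6:65144761-65144789, minus strand: cttttaggtggAGGAAGTggcctctggct
Fcrls, chr3:87263582-87263610, minus strand: acaactttgccACTTCCTttttttcctat
Cmtm6, chr9:114731162-114731190, plus strand: ggcggagtcccAGGAAGTgacgcccccta
Rnase4, chr14:51095946-51095974, plus strand: aggaggagcccAGGAAGTgctgtgtgtat

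The stretches of Inpp5d and Ltc4s lay outside the annotated gene, on its 5′ side. Those of Hpgds, Fcrls, Cmtm6 and Rnase4 lay before the start used for the window but inside the annotated span of the gene, and only the motif with short flanks is shown for them. In Fcrls the motif was read on the opposite strand and therefore appears as its reverse complement. The log2 differences of these 6 genes did not share a sign, and none passed an adjusted p of 0.05. Hpgds and Fcrls had negative differences of −0.75 and −0.41, each resting on 1 PGC-1αf/f value. Inpp5d had one of −0.11, and Ltc4s, Rnase4 and Cmtm6 had positive ones of 0.083, 0.083 and 0.027. The other genes with the motif, Ctss and Slco2b1, differed by 0.0089 and −0.12. Whether these genes vary together across arrays was not tested.

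Between 45.6% and 51.0% of the 59305 non-control spots were well above background on each array, and none was saturated. The 75th percentile of spot intensity, which was used to scale the arrays, lay between 1012 and 2138. The identity genes exceeded the general level of detection, with all 37 well above background on all 6 arrays. Outlier spots removed at least 1 array for 7 of them. Gpr34, Adgrg1, Lgmn and Maf lost 1 array each, Tmem119 and Hpgds 2 each, and Fcrls 3. Hpgds and Fcrls therefore had a single PGC-1αf/f value. Because the arrays lay on 1 slide with PGC-1αf/f in slide row 1 and mPGC-1α in slide row 2, slide row and group cannot be told apart.

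Some arrays stood apart from the rest or from their label. The correlation of PGC-1αf/f replicate 3 with the rest, taken over all probes and averaged, was 0.93, against 0.96 to 0.97 for the other 5 arrays. Over the identity genes the corresponding values were 0.98 to 0.99 for all 6 arrays. The Y-linked genes Ddx3y, Eif2s3y, Kdm5d and Uty were well above background on 5 arrays but not on mPGC-1α replicate 3, although its label reads male. Xist, read in the same list as the Y-linked genes, was well above background on 3 arrays, which were not all of the same group. Results were also computed without PGC-1αf/f replicate 3 and without mPGC-1α replicate 3, because these arrays stood apart.

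The targeted gene was examined first. Ppargc1a gave log2 signals of 0.19, −0.44 and −1.21 in PGC-1αf/f and 0.57, 0.28 and 0.077 in mPGC-1α, relative to the 75th percentile of each array. The mPGC-1α mean was higher by 0.80 (SE 0.35; limma adjusted p = 0.306), and the lowest mPGC-1α array lay below the highest PGC-1αf/f array. Whether the probe also reads the transgene was not tested.

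To determine whether the homeostatic program differed between mPGC-1α and PGC-1αf/f microglia, each gene was read from a limma fit across all tested probes. None of the 37 identity genes passed an adjusted p of 0.05, and the lowest adjusted p was 0.145, for Upk1b. Over all tested probes 0.0792% passed. At an unadjusted p under 0.05, 1 identity gene (Upk1b) was lower in mPGC-1α, whereas 9.21% of all tested probes were. None was higher at that threshold, compared with 7.53% of all tested probes. Both counts of identity genes lay below the background share with this scaling by the 75th percentile. Under the 4 other scalings tried, the share of identity genes called lower lay above that of all tested probes.

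The values of most identity genes were close to each other in the groups. The median log2 difference, mPGC-1α minus PGC-1αf/f, was −0.074 over the set, with quartiles of −0.22 and −0.0029, and −0.0026 over all tested probes. The range ran from −1.06 for Upk1b to 0.37 for Bhlhe41. The difference lay within 0.5 in either direction for 35 of 37 genes (94.6%), compared with 80.7% of all tested probes. For 34 of 37 genes the whole 95% interval lay within 1 log2 unit of 0, the exceptions being Upk1b, Hpgds and Fcrls. The median SE of a difference was 0.15 in the set and 0.18 over all tested probes. Small changes could therefore not be resolved with 3 arrays per group. The shares of 94.6% and 80.7% thus compare probes of different precision.

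**Figure D1:**
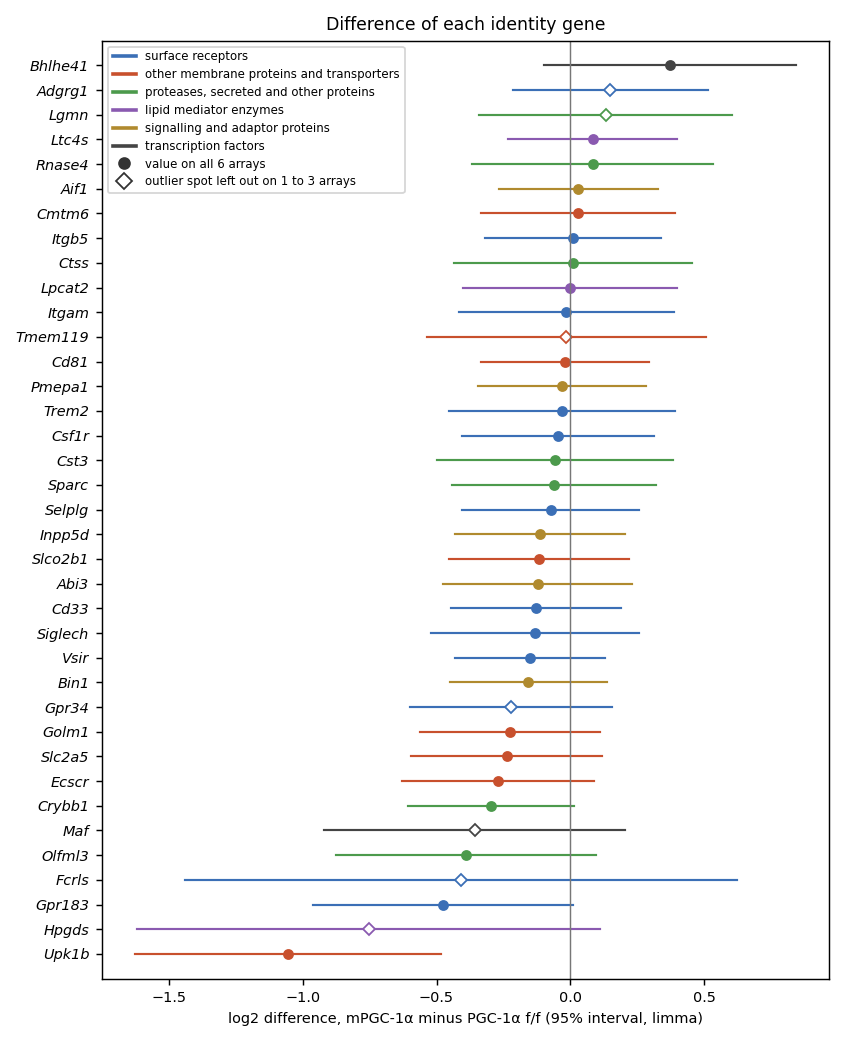
Log2 difference between mPGC-1α and PGC-1αf/f for each of the 37 identity genes (points) with 95% intervals from limma (lines), colored by the role of the protein. Filled circles have a value on all 6 arrays, and open diamonds lost 1 to 3 arrays to outlier spots. Only the interval of Upk1b lies wholly on one side of 0.

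The signs leaned to one side. The difference was negative for 28 of the 37 genes (75.7%), whereas 50.3% of all tested probes were negative. Of the 30 genes with a value on every array, 6 had all mPGC-1α values below all PGC-1αf/f values, which were Upk1b, Olfml3, Crybb1, Golm1, Bin1 and Vsir. The share over all probes with complete values was 13.7%. None of the 30 had the groups separated in the opposite direction, compared with 11.4% of all such probes. Since the genes share the same 6 arrays, their signs are not independent of each other. In these bulk samples, fewer microglia and less RNA of a gene per microglial cell cannot be told apart.

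Single arrays moved many identity genes at once. Averaged over the 30 genes with complete values, the deviation from a gene's mean was 0.16 on PGC-1αf/f replicate 1, 0.013 on replicate 2 and 0.0035 on replicate 3. It was −0.085, −0.15 and 0.054 on mPGC-1α replicates 1, 2 and 3. PGC-1αf/f replicate 1 gave the highest value for 13 of the 30 genes, and mPGC-1α replicate 2 the lowest for 11. The array means of the groups thus overlapped, with mPGC-1α replicate 3 above both PGC-1αf/f replicates 2 and 3.

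**Figure D2:**
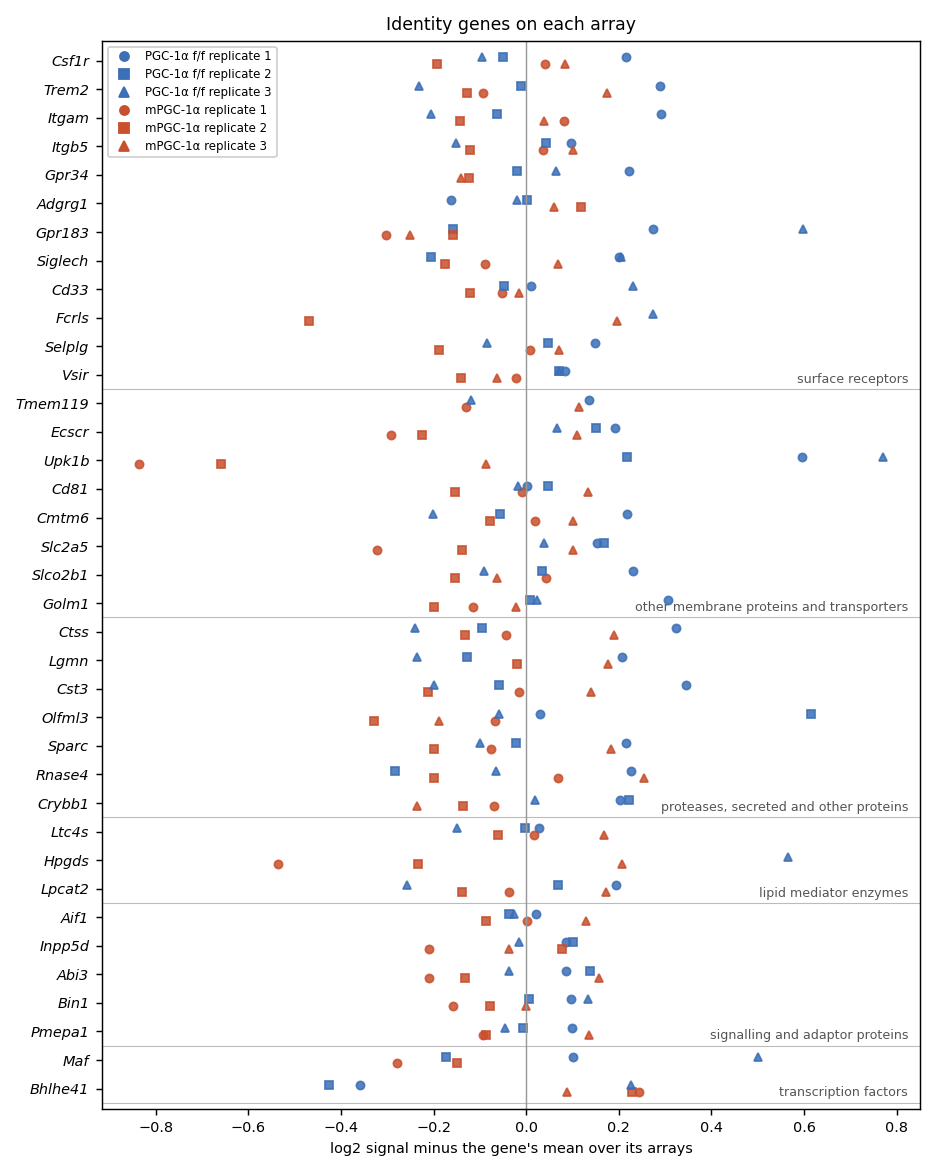
Log2 signal of each identity gene on each array, minus the mean of that gene over its arrays. Blue symbols are PGC-1αf/f and orange symbols mPGC-1α, with circles, squares and triangles for replicates 1, 2 and 3. PGC-1αf/f replicate 1 (blue circles) lies furthest to the right for 13 of the 30 genes with complete values, and the widest spread is that of Upk1b.

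Upk1b encodes uroplakin 1b, a tetraspanin first described in the urothelium and listed among the genes enriched in microglia. Its brighter probe read 2.10, 1.72 and 2.28 in PGC-1αf/f and 0.67, 0.85 and 1.42 in mPGC-1α. Every mPGC-1α array was thus below every PGC-1αf/f array. The log2 difference was −1.06 (SE 0.24, 95% interval −1.63 to −0.48), that is 0.481-fold (limma adjusted p = 0.145).

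The dimmer probe of Upk1b read 0.50, 0.40 and 1.19 in PGC-1αf/f and −0.78, −0.59 and −0.56 in mPGC-1α. Here too the groups did not overlap. The difference was −1.34 (SE 0.23, limma adjusted p = 0.0970). In slide columns 1 and 2, which each held an array of both groups, the brighter probe differed by −1.43 and −0.88 and the dimmer by −1.29 and −0.99. The difference of the brighter probe ran from −1.28 to −0.90 when single arrays were left out. With array weights it was −0.97 with an adjusted p of 0.0436, the only alternative that placed an identity gene past the threshold.

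Hpgds encodes hematopoietic prostaglandin D synthase, which makes the lipid mediator prostaglandin D2. Its only usable PGC-1αf/f array read 2.28, and the mPGC-1α arrays read 1.18, 1.48 and 1.93. The difference was −0.75 (SE 0.34, limma adjusted p = 0.339) and rests on that 1 control value. When outlier spots were kept, the PGC-1αf/f values became 2.03, 2.21 and 2.28, all above the mPGC-1α arrays. The difference was then −0.64 (SE 0.21, adjusted p = 0.222). The 2 further enzymes of lipid mediators, Ltc4s (leukotriene C4 synthase) and Lpcat2, which makes platelet-activating factor, differed by 0.083 and −0.0029, and a second Lpcat2 probe with 1 value per group by −0.46.

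**Figure D3:**
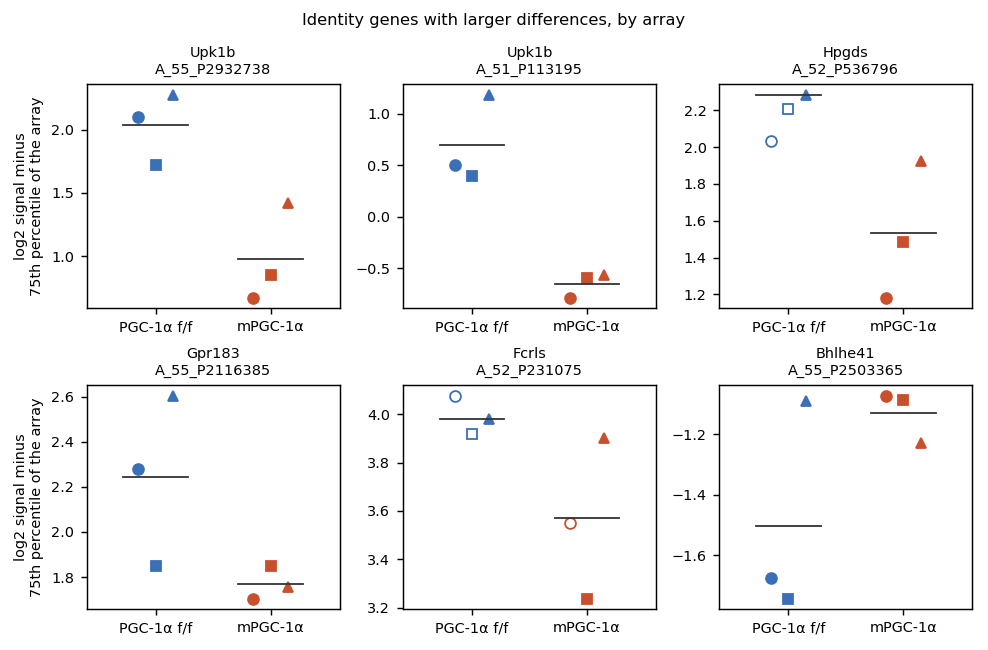
Log2 signal minus the 75th percentile of the array, for both probes of Upk1b and for Hpgds, Gpr183, Fcrls and Bhlhe41, on each array. Blue is PGC-1αf/f and orange mPGC-1α, circles, squares and triangles are replicates 1, 2 and 3, open symbols are outlier spots that were not used, and lines are the means of the values used. The groups are apart for both Upk1b probes, and they overlap or rest on few values for the other genes.

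Of the surface receptors in the set, Csf1r, Trem2, Itgam and Siglech had overlapping groups on their brightest probes. Csf1r, the receptor for CSF1 and IL-34 on which microglial survival depends, read 4.83, 4.56 and 4.52 in PGC-1αf/f and 4.65, 4.42 and 4.70 in mPGC-1α. The groups overlapped, and the difference was −0.046 (SE 0.15, limma adjusted p = 0.896). Its second probe differed by −0.30 and overlapped as well.

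Trem2, a receptor for lipids and apolipoproteins that signals through TYROBP, read 4.78, 4.48 and 4.26 in PGC-1αf/f and 4.40, 4.36 and 4.67 in mPGC-1α. Itgam, the integrin chain CD11b of complement receptor 3, read 4.48, 4.12 and 3.98 and then 4.27, 4.04 and 4.22. In both genes the PGC-1αf/f arrays enclosed the mPGC-1α arrays, and the differences were −0.031 (SE 0.18) and −0.015 (SE 0.17). A second probe of Itgam differed by −0.47, also with overlapping groups. Siglech, a lectin of the Siglec family, read 3.76, 3.36 and 3.77 in PGC-1αf/f and 3.47, 3.39 and 3.63 in mPGC-1α. Its groups overlapped too, with a difference of −0.13 (SE 0.16, limma adjusted p = 0.699). Its second probe was separated downward on the 5 values used, with 3.41 and 3.39 in PGC-1αf/f and 3.19, 3.22 and 3.10 in mPGC-1α (−0.24, SE 0.14, limma adjusted p = 0.434).

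Among the other 8 surface receptors, the differences ran from −0.47 for Gpr183 to 0.15 for Adgrg1. Gpr183, a chemotactic receptor for oxysterols, was singled out after its values were seen. It read 2.28, 1.85 and 2.60 in PGC-1αf/f and 1.70, 1.85 and 1.76 in mPGC-1α, so that PGC-1αf/f replicate 2 lay at the level of the mPGC-1α arrays (−0.47, SE 0.20, limma adjusted p = 0.306). Without that array the difference was −0.67. Fcrls, an Fc receptor-like protein, was also named after its values were seen. It had 1 PGC-1αf/f value of 3.98 and mPGC-1α values of 3.24 and 3.90, with a difference of −0.41 (SE 0.37), or −0.43 (SE 0.19, adjusted p = 0.307) with outlier spots kept. The values were then 4.08, 3.92 and 3.98 in PGC-1αf/f and 3.55, 3.24 and 3.90 in mPGC-1α, and the groups were apart.

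The lysophosphatidylserine receptor Gpr34 differed by −0.22 on its brighter probe and by −0.996 on a second, which had 1 value per group. The average of its probes differed by −0.59 and likewise rests on 1 array per group. The checkpoint receptor Vsir (VISTA) differed by −0.15, the sialic acid-binding lectin Cd33 by −0.13 and the selectin ligand Selplg by −0.074. Itgb5, an integrin chain that takes part in the uptake of apoptotic cells, differed by 0.0092. Adgrg1, an adhesion G protein-coupled receptor, differed by 0.15. Among the receptors with a value on all 6 arrays, Vsir was the 1 with separated groups, on one of its 2 probes. Gpr34 and Adgrg1 each lacked mPGC-1α replicate 1, and on the 5 values used Gpr34 was separated downward (3.96 to 4.20 in PGC-1αf/f, 3.84 and 3.85 in mPGC-1α) and Adgrg1 upward (3.54 to 3.70, then 3.76 and 3.82). With outlier spots kept Gpr34 stayed separated, with a value of 3.84 on that array, and Adgrg1 overlapped, with 3.59. In all, 10 of 12 surface receptors had negative differences.

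Tmem119, a membrane protein used to distinguish microglia from infiltrating macrophages, read 4.84 and 4.58 on 2 PGC-1αf/f arrays and 4.57 and 4.82 on 2 mPGC-1α arrays. The groups overlapped with a difference of −0.016 (SE 0.20, limma adjusted p = 0.975). Of the other membrane proteins, Ecscr differed by −0.27, the fructose transporter Slc2a5 by −0.24, the Golgi protein Golm1 by −0.22 and the organic anion transporter Slco2b1 by −0.12. Cmtm6, which stabilizes PD-L1 at the cell surface, differed by 0.027. The tetraspanin Cd81 differed by −0.020 on its brighter probe and by 0.25 on a second, so its probes did not share a sign. The second was separated upward on the values used, with 3.91 and 3.86 in PGC-1αf/f and 4.17 and 4.10 in mPGC-1α.

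Lysosomal proteases and their inhibitor lay on both sides of 0. Ctss (cathepsin S) differed by 0.0089, Lgmn (legumain) by 0.13 and the cysteine protease inhibitor Cst3 (cystatin C) by −0.058, with 0.11 on its second probe. Among secreted and other proteins, Olfml3, a matrix glycoprotein, differed by −0.39 and the crystallin Crybb1 by −0.30, both with separated groups. Sparc, a matrix protein, differed by −0.062 with overlapping groups. Its second probe differed by −0.18 and was separated downward on the 3 PGC-1αf/f and 2 mPGC-1α values used (3.86 to 3.98, then 3.70 and 3.76). The ribonuclease Rnase4 differed by 0.083.

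Olfml3 and Crybb1 were looked at by array after their values were seen. Olfml3 read 1.78, 2.36 and 1.69 in PGC-1αf/f and 1.68, 1.42 and 1.56 in mPGC-1α (limma adjusted p = 0.372). PGC-1αf/f replicate 2 stood above the other 5 arrays, and the remaining gap between the groups was small. Crybb1 read 3.79, 3.81 and 3.60 in PGC-1αf/f and 3.52, 3.45 and 3.35 in mPGC-1α (limma adjusted p = 0.314), with all arrays of each group close together.

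Among signalling and adaptor proteins, Aif1, which encodes the actin-binding marker IBA1, read 4.30, 4.24 and 4.25 in PGC-1αf/f and 4.28, 4.19 and 4.41 in mPGC-1α. The groups overlapped, with a difference of 0.029 (SE 0.13, limma adjusted p = 0.922). The membrane-bending protein Bin1 differed by −0.16 with separated groups on its brighter probe. The inositol phosphatase Inpp5d (SHIP1) differed by −0.11, the actin regulator Abi3 by −0.12 and the inhibitor of TGF-β signalling Pmepa1 by −0.030.

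Of the 2 transcription factors in the set, Maf, a regulator of macrophage identity, differed by −0.36 (SE 0.23, limma adjusted p = 0.455). Bhlhe41, a repressor expressed in microglia and tissue macrophages, had the highest difference of the set, and its arrays were looked at after its values were seen. It read −1.67, −1.74 and −1.09 in PGC-1αf/f and −1.07, −1.09 and −1.23 in mPGC-1α. PGC-1αf/f replicate 3 lay among the mPGC-1α arrays. The difference was 0.37 (SE 0.20, limma adjusted p = 0.375), and 0.58 without that array.

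Leaving out the arrays that stood apart did not bring any identity gene past an adjusted p of 0.05. Without PGC-1αf/f replicate 3, Upk1b, Olfml3 and Crybb1 were lower and Bhlhe41 higher at an unadjusted p under 0.05, in place of Upk1b alone, and the median difference was −0.13. Of all probes tested without that array, 6.52% were lower and 6.08% higher. Without mPGC-1α replicate 3, Upk1b, Ecscr, Slc2a5 and Hpgds were lower and the median was −0.14, and the number of genes with groups separated downward was 11 in place of 6. Of all probes tested without it, 7.89% were lower and 5.20% higher at the same threshold, and 20.5% of those with complete values were separated downward, compared with 13.7% on all 6 arrays. Without PGC-1αf/f replicate 2, Gpr183 joined Upk1b, and 7.64% of all tested probes were lower. The median was −0.024 without PGC-1αf/f replicate 1 and −0.016 without mPGC-1α replicate 2.

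Within the slide columns that held both groups, the signs leaned the same way. In column 1, which paired PGC-1αf/f replicate 1 with mPGC-1α replicate 1, 31 of 32 identity genes with values were lower in mPGC-1α, with a median difference of −0.24. Of all tested probes with values in that column, 52.9% were lower and the median was −0.022. In column 2, with replicate 2 of both groups, 27 of 34 were lower, with a median of −0.11, compared with 48.2% and 0.013 for all tested probes. Each of these compares 1 array with 1 array and has no replicate error. They reuse arrays of the main comparison and leave out replicate 3 of both groups, so they are not a separate check of it. Over the genes with complete values, the mean deviation on replicate 3 was 0.0035 in PGC-1αf/f and 0.054 in mPGC-1α, which runs the other way.

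How many identity genes were lower depended on the scaling of the arrays. With quantile normalization 7 genes were lower at an unadjusted p under 0.05, with a median shift 5, with normexp background correction and quantile normalization 10, and in the deposited table without normalization 2. The share of all tested probes called lower was 10.6%, 12.2%, 9.51% and 2.03% in these settings, compared with 9.21% under the 75th percentile. The median of the set was −0.19, −0.21, −0.22 and −0.12, and that of all tested probes −0.044, −0.14, −0.037 and −0.044. Against the shift of all probes, the set thus lay lower by more under both quantile settings than under the 75th percentile or the median shift. No identity gene passed an adjusted p of 0.05 under any of these 5 scalings.

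The 10 genes called lower with normexp were Gpr34, Gpr183, Fcrls, Vsir, Ecscr, Upk1b, Slc2a5, Crybb1, Hpgds and Inpp5d. Upk1b was lower under all 5 scalings. Hpgds was lower under the 4 other than the 75th percentile, while Csf1r, Trem2, Itgam, Tmem119, Siglech and Aif1 were called under none.

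**Figure D4:**
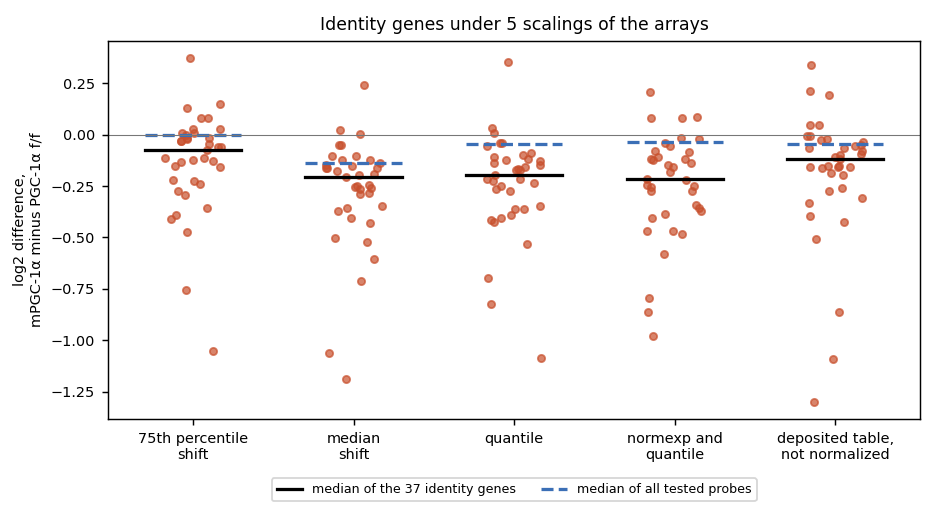
Log2 difference of each of the 37 identity genes (points) under 5 ways of scaling the arrays, with the median of the set (black lines) and the median of all tested probes (dashed blue lines). The set's median is −0.074 with the 75th percentile shift and between −0.22 and −0.12 in the other settings.

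The genes that act upstream of, or beside, the identity program were read in the same fit. Of 36 pathway partners, 35 had a tested probe, and 23 were lower and 12 higher in mPGC-1α with a median difference of −0.11. That median was −0.057 without PGC-1αf/f replicate 1 and −0.061 without mPGC-1α replicate 2. None passed an adjusted p of 0.05, and 4 were lower and none higher at an unadjusted p under 0.05, compared with 9.21% and 7.53% of all tested probes. Among the lowest was the collagen receptor Lair1 (−0.54, SE 0.21, limma adjusted p = 0.294). The 2 highest were Csf1, a ligand of CSF1R (0.57, SE 0.26, adjusted p = 0.361), and Gas6, a ligand of the MERTK and AXL receptors (0.18, SE 0.14, adjusted p = 0.541). Outlier spots left Csf1 with 1 PGC-1αf/f value and Lair1 with 2 arrays per group.

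The 8 defining markers outside the set had a median difference of −0.19, and 5 of them were lower. Cx3cr1, the locus that holds Cre in mPGC-1α mice, read 4.53, 4.28 and 4.24 in PGC-1αf/f and 3.85, 3.95 and 3.73 in mPGC-1α. Its groups did not overlap, with a difference of −0.51 (SE 0.14, limma adjusted p = 0.194). P2ry12, the receptor used for the selection, differed by −0.31 (SE 0.21), Sall1 by −0.40 and P2ry13 by −0.11. The complement genes C1qa, C1qb and C1qc differed by 0.0037, 0.071 and 0.092.

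A list of 23 genes known to rise in activated microglia lay on the other side. In mPGC-1α 22 were higher and 1 lower, with a median difference of 0.64. Of these, 9 were higher at an unadjusted p under 0.05, compared with 7.53% of all tested probes, and none passed an adjusted p of 0.05. The 9 include Gpnmb, which passed the background limit on 2 PGC-1αf/f arrays of 3 and so was tested through the group in which it was high, and Lyz2, with 1 value per group. The median fell from 0.64 to 0.35 without PGC-1αf/f replicate 3. The difference between this list and the identity genes was not tested.

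Markers of other cells differed between arrays as well. Among their lists, only the oligodendrocyte list had groups that were apart in summed level. Of 20 blood leukocyte markers, 17 were tested and had positive differences, with a median of 1.41 that fell to 0.35 without PGC-1αf/f replicate 3. None had an unadjusted p under 0.05. Mmp9 and Cxcr2 passed the background limit on 2 PGC-1αf/f arrays of 3 and were tested through mPGC-1α, where they were high. The log2 of their summed level, over markers with a value on every array, was 4.27 on that array and 6.87 to 7.43 on the other 5. On no array was the B cell marker Cd79a well above background.

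Border macrophage markers had a median difference of 0.29, with 11 of 12 higher, and the log2 of their summed level was 4.32 to 4.42 in PGC-1αf/f and 4.27 to 4.97 in mPGC-1α. Their median was 0.066 without mPGC-1α replicate 3 and 0.47 without mPGC-1α replicate 1. Oligodendrocyte markers went the opposite way, with 10 of 13 tested lower, 6 of them at an unadjusted p under 0.05, and a median of −0.55, which was −0.36 without PGC-1αf/f replicate 3. Of these 6, Mog was well above background on 0 and Opalin on 2 of the 3 mPGC-1α arrays, so both were tested through the group in which they were high. Pdgfra, which marks oligodendrocyte precursors, was higher in mPGC-1α (1.24, limma adjusted p = 0.122). Their log2 summed level was 4.26 to 4.64 in PGC-1αf/f and 3.80 to 4.03 in mPGC-1α, without overlap. In neuron, astrocyte, endothelial and mural, and erythroid markers the medians were 0.14, 0.089, 0.28 and 0.20, with no gene past an unadjusted p of 0.05. The summed level of the identity genes themselves was 8.73 to 8.99 in PGC-1αf/f and 8.65 to 8.89 in mPGC-1α on the same log2 scale. The part of these other cells in the differences of the identity genes was not tested.

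**Figure D5:**
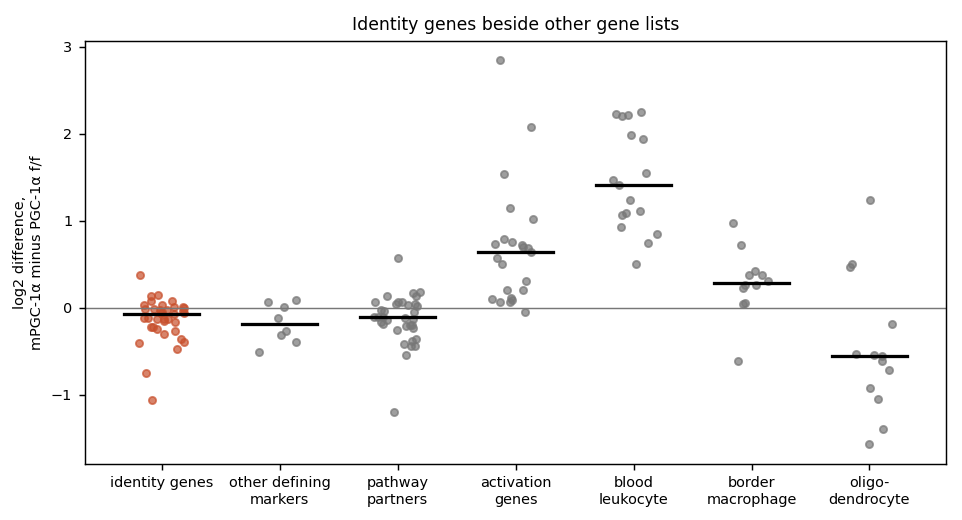
Log2 difference, mPGC-1α minus PGC-1αf/f, of the 37 identity genes (orange points) and of the tested genes of 6 other lists (gray points), with the median of each list (black lines). The identity genes lie close to 0 with a median of −0.074, whereas the medians of the activation and blood leukocyte lists are 0.64 and 1.41 and that of the oligodendrocyte list is −0.55.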

How the data were processed

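Total RNA from P2RY12-selected microglia was amplified, labeled with Cy5 and hybridized by the authors to single-dye Agilent mouse arrays. The deposited scanner files hold spot intensity after background subtraction by Feature Extraction 11.5.1.1, and the deposited table of the series holds the same intensity, rounded and not normalized between arrays. The study's methods name GeneSpring normalization and no test per gene.

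Groups and replicate numbers came from the labels. Control spots and outlier spots were left out. The 75th percentile of an array over non-control spots was subtracted from its log2 intensity, and spots of a probe were averaged. Probes counted as well above background where the flag was set for a share of at least 0.5 of their spots, and were tested when this held on all arrays of at least 1 group. This left 25333 of 56605 probes, of which 25257 gave a p-value. Probes were named by transcript accession through a RefSeq table of build GRCm38.p6, with a single symbol for 33767. Gene differences were fitted with limma 3.58.1 (lmFit, eBayes, two-sided) in R 4.3.3, with files read by data.table (1.17.8), and adjusted by Benjamini-Hochberg over all tested probes. The step was tested on simulated data. A summed level is log2 of the sum of the scaled intensity of a list's tested probes with a value on all 6 arrays. Figures were made in Python 3.11.15 (numpy 2.4.6, pandas 2.3.3, matplotlib 3.10.9).

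The members and lists were chosen with earlier results of these data known. All 37 members were named. Values on every array were given for members with an unadjusted p under 0.05 or an absolute log2 difference of at least 0.5, and for Tmem119, Csf1r, Trem2, Aif1, Itgam and Siglech. Of the partners the 2 highest and 2 lowest were to be named. Some genes of the other lists are not reported here by name. The alternatives covered scaling (quantile, median shift, normexp with offset 50 on median spot intensity in place of the mean followed by quantile, or the deposited table as given), the filter (none, or all 6 arrays), blocks (replicate number, or slide column as random), array weights, the mean over a gene's probes, and each array left out. Keeping outlier spots and taking the brightest probe with a value on all 6 arrays were chosen after seeing the data. With 3 arrays per group, the number of arrays limits the precision.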

Additional observations from a re-analysis of the deposited data

How the results depend on the processing

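No identity gene passed an adjusted p of 0.05 under any of 18 alternatives except array weights, where 1 (Upk1b) did, and the difference of Upk1b kept its sign throughout. At an unadjusted p under 0.05, 1 gene was lower in the reported setting. The count was 7 with quantile normalization, 5 with a median shift, 10 with normexp and quantile normalization, 2 with the deposited table, 2 with the filter requiring all 6 arrays, 2 with a random block for the slide column, 5 with array weights, 2 with the mean over probes and 2 with outlier spots kept. For the last 5 of these, in the same order, 9.36%, 11.1%, 12.1%, 6.35% and 9.32% of all tested features were lower, compared with 9.21% in the reported setting. It was 1 to 4 when single arrays were left out (6.31% to 10.3% of all probes). The count of higher genes was 0, but 1 with the random slide column and 1 with array weights (Bhlhe41 in both), and 0 to 1 without single arrays. Of all tested probes, 9.15% were higher with the random slide column and 10.8% with array weights, compared with 7.53% in the reported setting. Without single arrays the share was 4.68% to 10.6%. Groups separated downward in 6 genes, and in 16 with quantile normalization, 13 with a median shift, 14 with normexp, 1 with the deposited table, 9 with outlier spots kept (Gpr34, Fcrls and Hpgds in addition), and 6 to 11 without single arrays. Over all probes the shares separated downward were 13.7% in the reported setting, 16%, 19%, 14.1% and 1.68% with these 4 scalings, 13.7% with outlier spots kept, and 16.3% to 21.7% without single arrays. With the mean over probes the groups separated downward in 4 identity genes, compared with 11.1% of all features with complete values. Groups separated upward in 0 to 1 without single arrays, compared with 14.8% to 22.4% of all probes with complete values. The median difference of −0.074 became −0.21 with a median shift, −0.22 with normexp, −0.19 with quantile normalization and −0.12 with the deposited table. It was −0.11 with the random slide column, −0.11 with array weights and −0.12 with the mean over probes, and lay between −0.14 and −0.016 without single arrays. The cause of these shifts was not tested.

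Genes with a difference near 0 changed sign. With quantile normalization these were Itgb5 (−0.11), Cmtm6 (−0.090), Ctss (−0.053), Rnase4 (−0.039), Ltc4s (−0.043) and Aif1 (−0.10). With a median shift they were Itgb5 (−0.12), Cmtm6 (−0.11), Ctss (−0.12), Rnase4 (−0.050), Ltc4s (−0.050) and Aif1 (−0.10). With normexp they were Itgb5 (−0.058), Cmtm6 (−0.040), Ctss (−0.020), Ltc4s (−0.017) and Aif1 (−0.14). With the deposited table they were Itgb5 (−0.023), Cmtm6 (−0.0076), Ctss (−0.027) and Aif1 (−0.0058). With the random slide column they were Itgb5 (−0.023), Cmtm6 (−0.0091) and Ctss (−0.047). With array weights they were Itgb5 (−0.085), Cmtm6 (−0.0066), Ctss (−0.031) and Aif1 (−0.010). The mean over probes turned Cst3 (0.025), and keeping outlier spots turned Tmem119 (0.034). Without single arrays the ranges that crossed 0 were −0.028 to 0.079 for Aif1, −0.091 to 0.053 for Cd81, −0.067 to 0.14 for Cmtm6, −0.10 to 0.050 for Csf1r, −0.17 to 0.10 for Cst3, −0.11 to 0.17 for Ctss, −0.12 to 0.13 for Itgam, −0.065 to 0.073 for Itgb5, −0.13 to 0.093 for Lpcat2, −0.11 to 0.011 for Pmepa1, −0.039 to 0.22 for Rnase4, −0.13 to 0.0019 for Selplg, −0.17 to 0.030 for Sparc, −0.14 to 0.11 for Tmem119 and −0.15 to 0.11 for Trem2.

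Same-numbered arrays had deviations that correlated at 0.14, 0.13 and 0.019, and the numbers were therefore not treated as pairs. With the replicate number as a block, 0 genes passed an adjusted p of 0.05, 1 was lower and 0 higher at an unadjusted p under 0.05, and the median difference was −0.074. Of all tested probes, 9.12% were lower and 9.47% higher in that fit. The block moved Hpgds to −0.36, Fcrls to −0.077, Maf to −0.18, Lgmn to 0.26, Adgrg1 to 0.098 and Gpr34 to −0.15, all of which lacked a value on at least 1 array. No filter on dim probes left all counts of identity genes as reported. Of all probes in that fit, 4.03% were lower and 4.03% higher. Of those with complete values, 7.84% were separated downward and 6.47% upward. All 37 genes were well above background on every array.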
